A study of Mus musculus with 8 samples.

Results

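The Id genes Id1, Id2, Id3 and Id4 were followed across the epithelial cell classes of the pubertal mouse mammary gland. They are 4 of the 14879 gene symbols in the deposited table, taken by symbol, and all 4 were found. Cells came from ducts and terminal end buds dissected out of mammary glands of mice aged 5 weeks, whose strain is given as mixed, and live cells were sorted one to a well. Each of 2 plates held 4 libraries of 96 wells, 768 wells in all. Transcripts were counted by SORT-seq, in which robots run the CEL-seq2 method: a well barcode and a molecule barcode mark each captured 3′ end. The groups compared were plate 2 and plate 1 and, within them, cell classes set from 8 marker genes; no genotype or treatment differed. Neither the tissue part (duct or end bud) nor the animal behind each library is given, so p-values describe the spread among libraries and that spread can be technical.

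A well counted as a cell from 1500 transcripts and 500 genes upward, which gave 114 cells. A cell was basal when Acta2, Tagln and Myl9 (contractile genes) together outnumbered Krt8, Krt18 and Krt19 (luminal keratins), and luminal in the reverse case. A luminal cell was hormone-sensing when Prlr, the prolactin receptor gene, outnumbered Trf, the transferrin gene, and otherwise secretory. This gave 66 basal cells, 14 hormone-sensing cells and 28 secretory cells, with 6 cells in which the basal and luminal sums were equal. The classes were thus chosen by the measured counts of these 8 markers. The Id genes had no part in setting them, but they were picked with earlier results of these data known, so a class difference in an Id gene is not independent evidence of it.

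Id proteins are helix-loop-helix proteins without the basic stretch that contacts DNA. They pair with E proteins such as Tcf3, Tcf4 and Tcf12 and keep these from binding E-box DNA, and so hold back differentiation in many cell types. Id genes are classical targets of bone morphogenetic protein (BMP) signalling through Smad factors. In the mouse mammary gland, loss of Id2 is known to block alveolar development in pregnancy, and Id4 is known from basal and stem-enriched cells.

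The genes lie on 4 chromosomes of GRCm38 (the assembly also named mm10) in GENCODE vM21, and all are protein coding. Id1 lies at chr2:152736251-152737410 on the plus strand, Id2 at chr12:25093799-25097140 on the minus strand, Id3 at chr4:136143497-136145755 on the plus strand and Id4 at chr13:48261228-48266026 on the plus strand. The longest stretch shared by annotated transcripts of different members was 19 bases, between Id2 and Id3, against reads of 75 bases. RefSeq promoter windows on GRCm38.p6 were at hand for 3 of the 4 members. Stretches of the windows of Id2 and Id4, the members highest in secretory and in basal cells, are shown 5′ to 3′ on the gene's own strand, with capitals for matches on either strand to the E-box CANNTG, to GGCGCC, a GC-rich motif bound by Smad factors, and to CCAAT.
Id2, chr12:25096254-25096342, minus strand: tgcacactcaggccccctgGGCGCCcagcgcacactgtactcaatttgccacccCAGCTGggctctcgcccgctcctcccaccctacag
Id4, chr13:48260866-48261115, plus strand: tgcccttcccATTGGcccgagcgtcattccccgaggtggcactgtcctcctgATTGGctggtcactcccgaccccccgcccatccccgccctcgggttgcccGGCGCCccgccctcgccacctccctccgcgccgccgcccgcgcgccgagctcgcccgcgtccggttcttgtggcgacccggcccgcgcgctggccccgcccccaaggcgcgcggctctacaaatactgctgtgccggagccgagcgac

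The Id4 stretch is the whole 250 bases before the RefSeq start. It held 1 GGCGCC and 2 CCAAT matches and no E-box, at a G+C content of 75.6%. The Id2 window lies within the span of the gene in GENCODE, whose annotated start is further upstream than the RefSeq start used here. The printed Id2 stretch is the 89 bases of that window outside GENCODE exons, and so is not sequence before the annotated gene. The whole Id2 window held 1 E-box, 1 GGCGCC and 3 CCAAT matches, the last 3 all in bases annotated as exon, at 62.8% G+C. The Id3 window, at 62.8% G+C, lies wholly in a GENCODE exon and held none of the 3 motifs. Among 32851 windows of the same length, 66.2% held the E-box, 9.59% held GGCGCC and 33.8% held CCAAT, and the median G+C content was 52.4%. A match is a description of letters, not of a bound site.

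Libraries held between 101158 and 598625 transcripts, and the median kept cell had 13451 transcripts in basal cells, 17924 in hormone-sensing cells and 7103 in secretory cells. The class markers named here, which had no part in the rule, were highest in their own class, in transcripts per 10000. The basal gene Krt5 stood at 5.43 in basal cells and at 0 in hormone-sensing and secretory cells, and Trp63 at 2.20 against 0 and 0. Pgr, the progesterone receptor gene, stood at 10.2 in hormone-sensing cells, 0.202 in secretory cells and 0.392 in basal cells. The milk gene Csn3 stood at 1.01, 69.7 and 5.27 in the same order. Basal and luminal cells came almost wholly from different libraries, and in that comparison the class cannot be told apart from the library. In 15 cells the markers of a non-epithelial type outnumbered the epithelial markers: 8 of the basal cells, 1 of the secretory cells and all 6 cells with equal sums. Plate 1 library 2 stands apart, since it held 5 of those basal cells among its 8 and 4 of the cells with equal sums. The basal against luminal results of Id2, Id3, Id4 and Tcf4 are therefore given with and without it. In 6 of the 114 cells both marker sums reached 10 transcripts; no doublet caller was run and no cell was removed.

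The 4 genes followed 3 different patterns. Id4 was found in basal cells and in none of the 42 luminal cells kept. Id2 was found in secretory and basal cells and hardly in hormone-sensing cells, and Id3 in hormone-sensing cells and little in secretory or basal cells. The 15 cells led by non-epithelial markers also held Id3, at 3.15 per 10000 (23 transcripts, in 6 of these cells). Id1 gave too few transcripts to be placed. These patterns are those of cells with at least 1500 transcripts. Shallower wells, which gave few Id transcripts, did not all follow them: among wells of 500 to 1499 transcripts put into classes by the same markers, Id4 had 2 transcripts in 30 basal wells and 3 in 15 secretory wells, all 3 in one well, or 0.808 and 2.16 per 10000. In the same wells Id3 had 3 transcripts in 9 hormone-sensing wells and 6 in 15 secretory wells, or 3.82 and 4.32 per 10000. Levels are transcripts of the gene per 10000 transcripts of the cells summed, and since each molecule is counted once they do not depend on the gene's length.

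Id4 stood at 4.15 per 10000 in basal cells (466 transcripts, 95% counting interval 3.78 to 4.55), at 0 in hormone-sensing cells and at 0 in secretory cells. Per basal library with at least 5 basal cells it was 4.41 in plate 2 library 2, 3.78 in plate 2 library 4, 2.57 in plate 1 library 2 and 5.41 in plate 1 library 4. In the kept luminal cells of each of the 4 luminal libraries it was 0. Basal libraries averaged 4.04 ± 1.19 per 10000 (SD, n = 4), and the lowest stood above every luminal library. Wells under 500 transcripts held Id4 at 2.32 per 10000 in basal libraries (10 transcripts) and 0.998 in luminal libraries (4 transcripts). Against a floor of 3 counts over the pooled luminal cells, Id4 was at least 87.8-fold higher in basal than in luminal cells. Id4 passed the low-count filter of edgeR's quasi-likelihood test through its basal counts alone, and with 0 in all 4 luminal sums it had to differ there. Its adjusted p of 1.7e-05 is therefore a description and lends the difference no support. In that comparison 14.6% of the 3412 genes tested passed and 8% passed as higher; libraries did not overlap, with basal higher, for 10.4%. Without plate 1 library 2 the adjusted p from edgeR was 2.06e-05. The bound was at least 48.7-fold within plate 2 and at least 38.6-fold within plate 1.

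Id4 varied widely among basal cells. Single cells lay between 0 and 16.5 per 10000 with a median of 3.22, and the highest count was 42 transcripts in one cell of plate 1 library 4. A transcript was found in 53 of 66 basal cells, or 80.3% (exact 95% binomial interval 68.7 to 89.1%), and by library in 29 of 31, 15 of 18, 4 of 8 and 5 of 7 cells, in the order given above. The 53 basal cells with Id4 had a median of 19929 transcripts, and 1 of them was led by markers of a non-epithelial type. The 13 basal cells without it had a median of 3735 transcripts, and 7 of them were led by such markers. Without the 8 basal cells led by other markers, 52 of 58 (89.7%) held Id4. A transcript was found in 0 of 14 hormone-sensing and 0 of 28 secretory cells, which by the floor of 3 counts allows shares of up to 21.4% and 10.7% of cells with a transcript, while the exact 95% binomial intervals reach 23.2% and 12.3%.

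**Figure D1:**
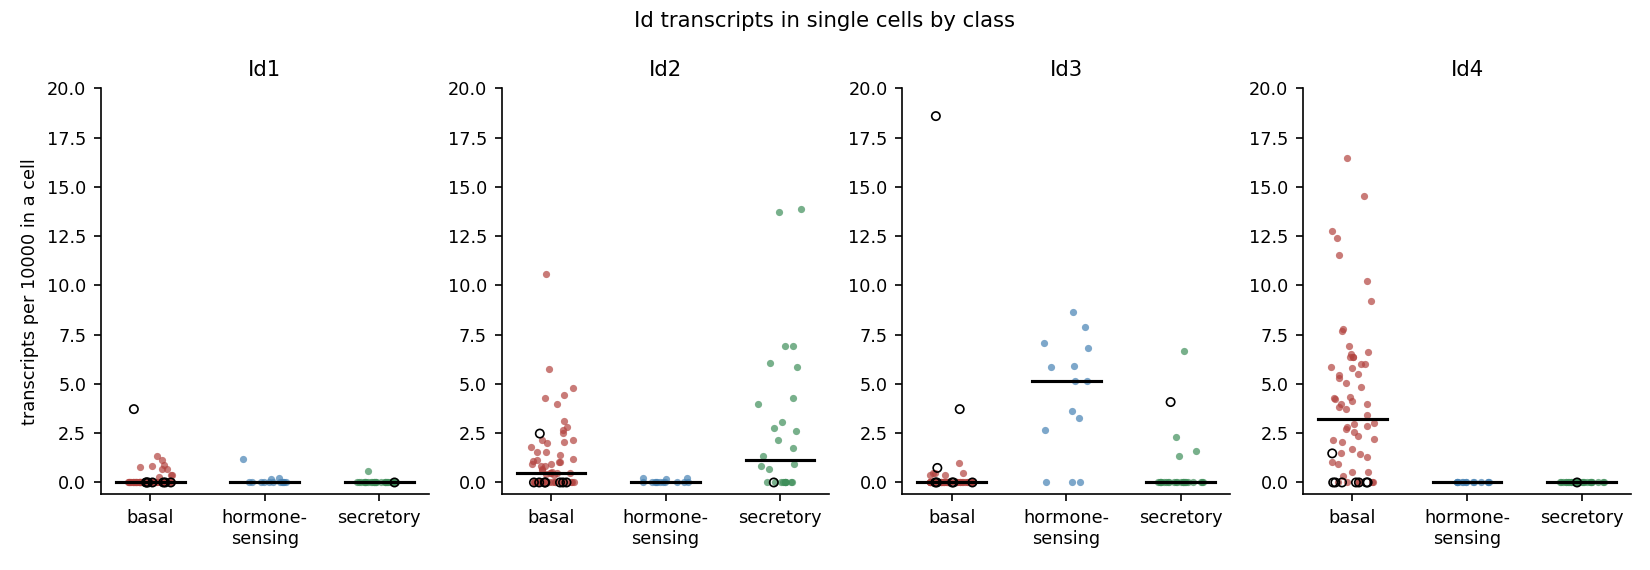
Transcripts per 10000 of each Id gene in single cells (vertical axis) by class (horizontal axis: 66 basal, 14 hormone-sensing and 28 secretory cells). Each point is a cell, open circles are cells led by markers of a non-epithelial type, and bars are medians; Id4 points above 0 appear in basal cells and the highest Id3 point, 18.6, is a basal cell led by other markers.

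Id2 had its highest level in secretory cells and its lowest in hormone-sensing cells, with basal cells between. It stood at 0.0889 per 10000 in hormone-sensing cells (3 transcripts) and at 3.60 in secretory cells (107 transcripts), and in basal cells at 1.10 (124 transcripts). Wells under 500 transcripts, taken as background, held Id2 at 1.16 in basal libraries (5 transcripts) and 0.998 in luminal libraries (4 transcripts). The level in basal cells was close to this rate, which rests on few transcripts. Of 285 such wells in basal libraries 5 held Id2, none with more than 1 transcript. In basal cells 37 of 66 held it, and 37.9% held at least 2 transcripts. The wells had a median of 117 transcripts and the basal cells 13451. How much of the basal Id2 count is background was not tested. The 3 libraries with at least 3 cells of both luminal classes were compared within library. In these, hormone-sensing cells had 0.0685 in plate 2 library 1, 0 in plate 2 library 3 and 0.186 in plate 1 library 3, against 3.23, 4.47 and 3.45 in secretory cells of the same libraries. The 3.23 of plate 2 library 1 is 4 transcripts, all in 1 of its 3 secretory cells. Secretory cells of plate 1 library 1 stood at 2.74. Every secretory sum was above every hormone-sensing sum.

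In edgeR's quasi-likelihood test with the library as block, Id2 was lower in hormone-sensing than in secretory cells by a log2 change of -5.25 ± 0.81 (SE, adjusted p = 4.12e-09), lower in 3 of 3 libraries. Hormone-sensing sums held 2 Id2 transcripts at most, so Id2 passed the low-count filter through its secretory counts alone. This adjusted p is therefore a description. Of the 1802 genes tested, 13.1% passed and 7.49% passed as lower, and libraries did not overlap, with hormone-sensing lower, for 13.3%. The pooled ratio was 0.0247 (95% counting interval 0.00501 to 0.0740), at 0.0102 within plate 2 and 0.0579 within plate 1. Without plate 2 library 1, which left 2 libraries, the log2 change was -5.26 and the adjusted p from edgeR was 0.0529. That library gave 7 of the 13 hormone-sensing cells in the fit, and its secretory sum held 12378 transcripts.

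Set against all luminal cells together, Id2 in basal cells did not pass. Basal libraries had 1.02 and 1.22 per 10000 on plate 2 and 0.428 and 1.74 on plate 1, against 0.316 and 2.65 in the luminal libraries of plate 2 and 2.57 and 1.53 in those of plate 1, and these ranges overlapped. The edgeR log2 change was -0.65 ± 0.52 (SE, adjusted p = 0.502), and without plate 1 library 2 it was -0.47 ± 0.53 (adjusted p = 0.620). The lowest luminal library, plate 2 library 1, was also the one with most hormone-sensing cells, 7 of 10. The luminal classes were therefore also set against basal cells one at a time, in fits added after the data were seen. Id2 was lower in basal than in secretory cells by -1.70 ± 0.38 (log2, SE, edgeR adjusted p = 0.00422), and higher in basal than in hormone-sensing cells by 3.61 ± 0.73 (adjusted p = 0.00247). In these fits 16.1% of 1844 genes and 24.3% of 2567 genes passed. In pooled level the order of Id2 from the highest was secretory, basal and hormone-sensing. Against hormone-sensing sums, with 2 Id2 transcripts at most, Id2 passed the low-count filter through its basal counts alone. The adjusted p of that fit is therefore a description. Without plate 1 library 4, plate 2 library 2 or plate 2 library 4, Id2 fell under the low-count filter in basal against hormone-sensing cells and had no value; in the other 4 leave-one-out fits it lay between 3.25 and 4.55 and passed.

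Id2 varied among the cells of a class too. Secretory cells lay between 0 and 13.9 per 10000 with a median of 1.14, and the highest count was 24 transcripts in a cell of plate 2 library 3. Basal cells lay between 0 and 10.6 with a median of 0.473. None of the 3 hormone-sensing cells with Id2 held more than 1 transcript.

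**Figure D2:**
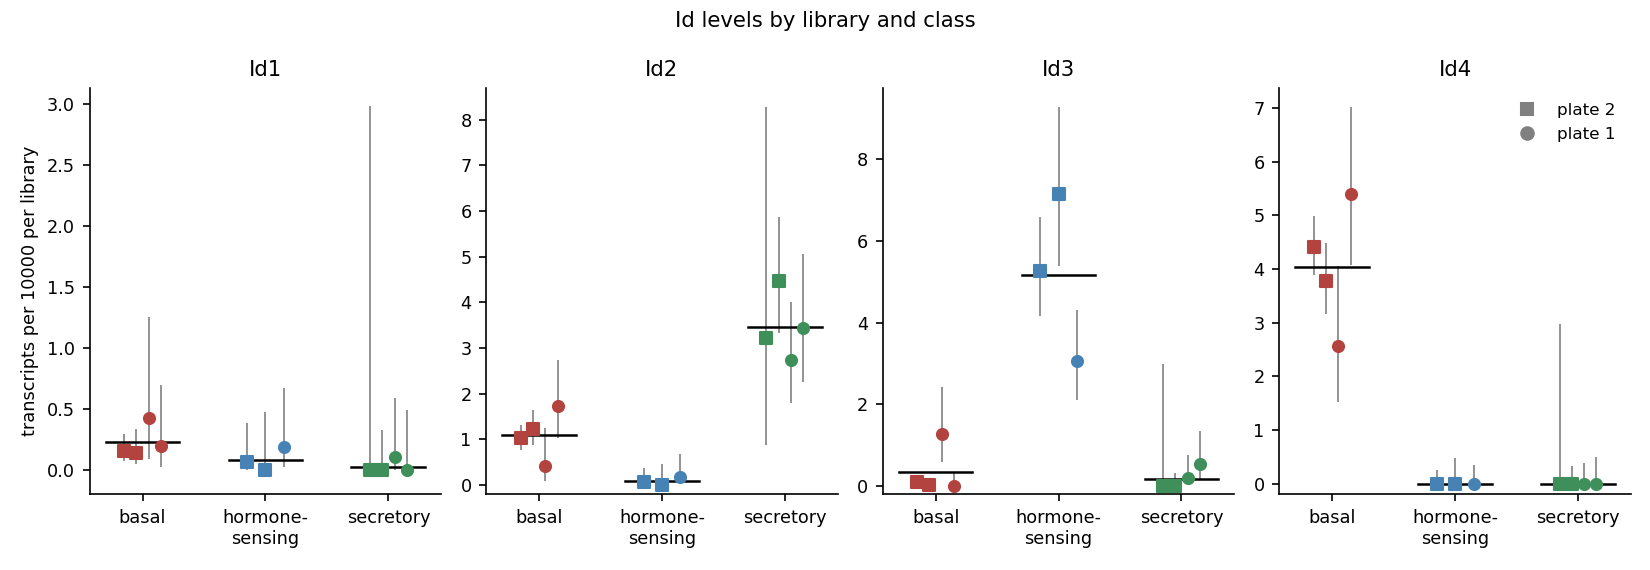
Level of each Id gene per library and class (vertical axis: transcripts per 10000; horizontal axis: class). Squares are plate 2 and circles plate 1, grey lines are 95% Poisson counting intervals and black lines are means over the 4 basal, 3 hormone-sensing and 4 secretory sums; the scale differs between panels. The basal Id3 sum of plate 1 library 2, at 1.28, stands above the other 3, which lie at or below 0.102.

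Id3 showed the reverse order of Id2 within the luminal classes. It stood at 4.92 per 10000 in hormone-sensing cells (166 transcripts) and at 0.202 in secretory cells (6 transcripts), and in basal cells at 0.143 (16 transcripts). Wells under 500 transcripts held Id3 at 1.16 in basal libraries (5 transcripts) and 2.74 in luminal libraries (11 transcripts). Hormone-sensing cells had 5.28 in plate 2 library 1, 7.15 in plate 2 library 3 and 3.07 in plate 1 library 3, against 0, 0 and 0.530 in secretory cells of the same libraries. Secretory cells of plate 1 library 1 had 0.210. Every hormone-sensing sum was above every secretory sum; such an absence of overlap, with hormone-sensing higher, held for 17.5% of genes tested.

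The edgeR log2 change of Id3 was 4.32 ± 0.80 (SE, adjusted p = 1.93e-06), higher in 3 of 3 libraries, in a comparison where 5.6% of genes passed as higher. Secretory sums in this fit held 4 Id3 transcripts at most, so Id3 passed the low-count filter through its hormone-sensing counts alone. This adjusted p is therefore a description. The pooled ratio was 24.3 (95% counting interval 10.9 to 67.3), at least 25.0-fold within plate 2 and 8.28 (3.42 to 24.2) within plate 1. Without plate 2 library 1 the adjusted p from edgeR was 0.137, with a log2 change of 4.18; without plate 2 library 3 the change was 2.99 (adjusted p = 0.0294) and without plate 1 library 3 it was 8.87 (adjusted p = 0.000149). All 6 secretory Id3 transcripts came from plate 1, and 2 of them from the secretory cell led by lymphocyte markers.

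In basal cells the Id3 count rested on one library. Basal sums had 0.102 in plate 2 library 2, 0.0284 in plate 2 library 4, 1.28 in plate 1 library 2 and 0 in plate 1 library 4, against 4.86 and 2.91 in the luminal libraries of plate 2 and 0.198 and 2.02 in those of plate 1. The ranges overlapped through plate 1 library 2 and plate 1 library 1. All 9 transcripts of plate 1 library 2 lay in 3 cells led by fibroblast, endothelial or adipocyte markers. Id3 passed as lower in basal than in luminal cells, with an edgeR log2 change of -3.78 ± 0.99 (SE, adjusted p = 0.0199); 6.57% of genes passed as lower. Without plate 1 library 2 the change was -5.19 ± 0.88 (adjusted p = 0.00128), and without all cells led by other markers -5.16 ± 1.02 (adjusted p = 0.00334). In both fits basal sums held 6 Id3 transcripts at most, so Id3 passed the low-count filter through its luminal counts alone. Both adjusted p are therefore descriptions.

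The basal against luminal call for Id3 was not stable in other ways. On plate 2 alone the edgeR change was -5.62 ± 0.53 (adjusted p = 0.00134), and on plate 1 alone -1.05 ± 1.32 (adjusted p = 0.812). In the plate 2 fit the luminal counts of Id3 alone met the low-count filter, so its adjusted p is a description. The edgeR interaction of class and plate over the 8 sums, added after the data were seen, was -4.49 ± 1.67 (SE, adjusted p = 1.00). Leaving out plate 1 library 4, plate 2 library 2 or plate 2 library 4 ended the call, with adjusted p of 0.0674, 0.116 and 0.0906, as did DESeq2 at 0.177. Against hormone-sensing cells alone, Id3 was lower in basal cells by -4.80 ± 0.84 (SE, edgeR adjusted p = 0.000874). In that fit the hormone-sensing counts of Id3 alone met the low-count filter, so the adjusted p is a description. Against secretory cells the pooled ratio was 0.705 (95% counting interval 0.262 to 2.20), so basal and secretory levels of Id3 were not told apart at this depth.

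Id1 had 19 transcripts in basal cells, 3 in hormone-sensing cells and 1 in secretory cells, or 0.169, 0.0889 and 0.0337 per 10000. Basal libraries lay between 0.142 and 0.428, hormone-sensing sums between 0 and 0.186, and secretory sums between 0 and 0.105. These ranges overlapped, and Id1 did not pass the filter on low counts for any class comparison. The pooled ratio of basal over luminal cells was 2.69 (95% counting interval 0.892 to 10.9).

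The share of cells with a transcript depends on depth, so each share was also computed at 1500 transcripts per cell. Id4 was in 80.3% of basal cells, and in 40.0% at equal depth. Id3 was in 78.6% of hormone-sensing cells (exact 95% interval 49.2 to 95.3%) and 17.9% of secretory cells (6.06 to 36.9%), and at equal depth in 44.7% and 8.23%. In basal cells Id3 was in 13.6%, and at equal depth in 3.07%. The 3 hormone-sensing cells without Id3 had 4455, 5968 and 7262 transcripts, below the class median.

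Id2 was in 21.4% of hormone-sensing cells (4.66 to 50.8%) and 60.7% of secretory cells (40.6 to 78.5%), and at equal depth in 0.658% and 27.5%. In basal cells it was in 56.1% (43.3 to 68.3%), and at equal depth in 14.5%. The basal and secretory shares of Id2 were thus close before depth was equalised and 14.5% against 27.5% after. Id1 was in 16.7% of basal, 21.4% of hormone-sensing and 3.57% of secretory cells, and at equal depth in 2.35%, 1.68% and 0.310%.

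**Figure D3:**
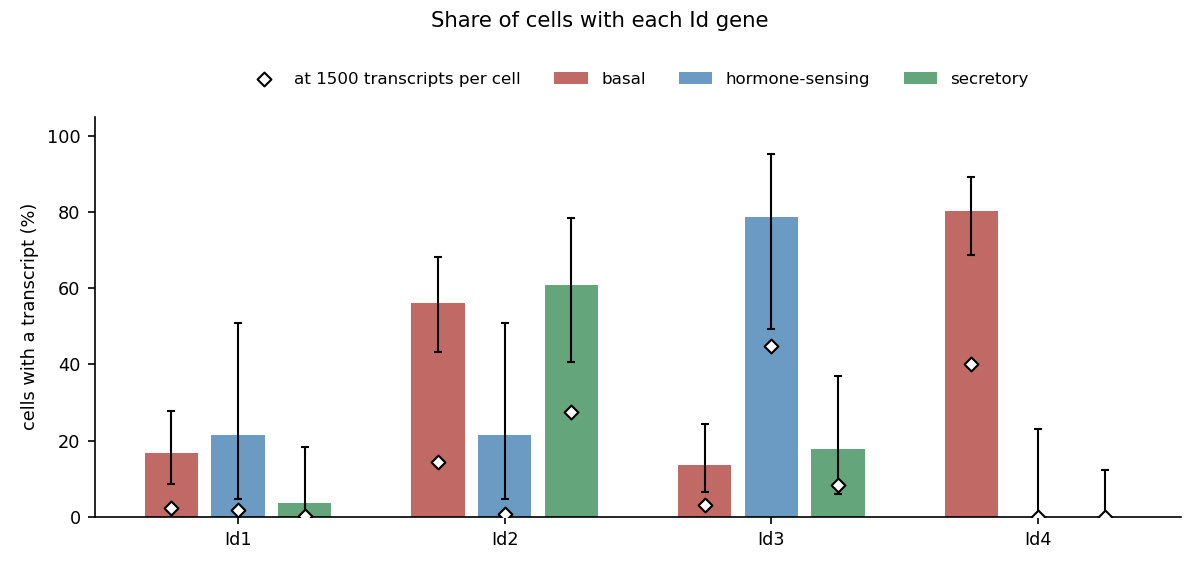
Share of cells with at least 1 transcript of each Id gene (vertical axis, %) by gene (horizontal axis) and class (colours: 66 basal, 14 hormone-sensing and 28 secretory cells). Bars are the shares as counted with exact 95% binomial intervals, and diamonds the expected shares at 1500 transcripts per cell; the hormone-sensing Id2 share of 21.4% becomes 0.658%.

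Id2 and Id3 were found together in few luminal cells, which differ by class in both genes. Of 42 luminal cells, 16 held Id2 without Id3, 12 held Id3 without Id2, 4 held both and 10 held neither, where the product of the 2 shares gives 7.62 cells with both. Within the classes, 3 of 14 hormone-sensing cells held both, against 2.36 from the product, and 1 of 28 secretory cells, against 3.04. Of the 4 cells with both, 3 were hormone-sensing cells of 44963, 45590 and 57903 transcripts, each with 1 Id2 transcript beside 12, 15 and 21 of Id3. The other was a secretory cell with 3 Id2 transcripts and 1 of Id3. Id3 outnumbered Id2 in 11 of the 14 hormone-sensing cells and 4 of the 28 secretory cells. Id2 outnumbered Id3 in 0 hormone-sensing cells and 17 secretory cells. The other 3 hormone-sensing and 7 secretory cells held neither. At 1500 transcripts per cell the expected number of luminal cells with both was 0.283, against 1.59 from the product of shares.

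Id2 and Id4 met often in basal cells. Both were found in 35 of 66 basal cells, Id4 alone in 18, Id2 alone in 2 and neither in 11, where the product of shares gives 29.7 cells with both. The 35 cells with both had a median of 21739 transcripts and the 11 with neither a median of 3445. At equal depth the expected number with both was 4.71, against 3.82 from the product. Without cells led by other markers, 35 of 58 held both, against 32.3 from the product. Across the 66 basal cells the levels of Id2 and Id4 had a Spearman rho of 0.289, while that of Id2 with depth was 0.265. Without the 8 basal cells led by other markers the rho of Id2 and Id4 was 0.183. All 4 Id genes were found in 1 basal cell, and 9 basal, 3 hormone-sensing and 7 secretory cells held none of them.

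**Figure D4:**
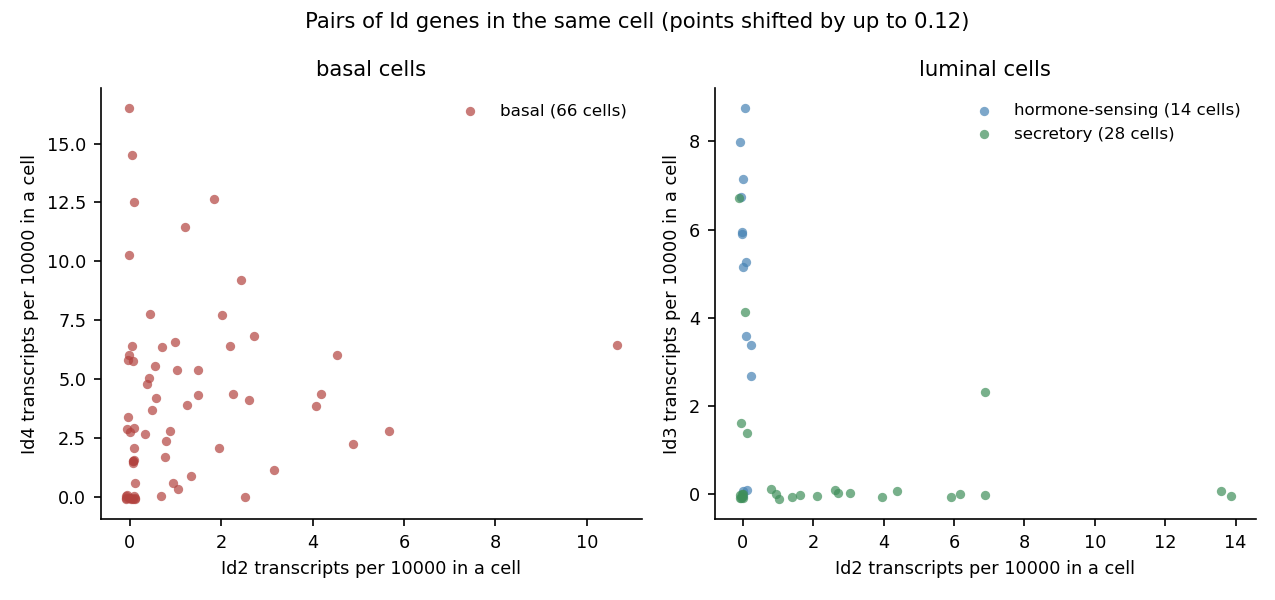
Pairs of Id genes in single cells, in transcripts per 10000: Id4 (vertical) against Id2 (horizontal) in 66 basal cells on the left, and Id3 (vertical) against Id2 (horizontal) in 14 hormone-sensing and 28 secretory cells on the right. Each point is a cell, shifted at random by up to 0.12; 4 luminal cells hold both genes, of which the 3 hormone-sensing ones, with 1 Id2 transcript each, lie close to the Id3 axis, and 35 basal cells hold both genes.

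The same class was also compared between plates, with 2 libraries a side. In basal cells the edgeR log2 change of plate 2 over plate 1 was -0.05 ± 0.54 for Id2 (SE, adjusted p = 0.978) and 0.03 ± 0.41 for Id4 (adjusted p = 0.985), and 0% of 4663 genes passed. In luminal cells it was -0.46 ± 0.85 for Id2 (adjusted p = 0.998) and 1.66 ± 0.79 for Id3 (adjusted p = 0.998), and 0% of 3778 genes passed. At an unadjusted p under 0.05 edgeR had 388 genes in basal and 120 in luminal cells, and DESeq2 called 22 and 1 genes after adjustment. Without plate 1 library 3, which left 1 library on plate 1, the luminal Id3 change was 4.16 (edgeR adjusted p = 0.00407), the lone library being assumed to vary like the others. Hormone-sensing cells were 7 of 10 and 3 of 12 luminal cells in the plate 2 libraries and 1 of 8 and 3 of 12 in the plate 1 libraries; their part in the Id3 difference was not tested.

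Of the genes of E proteins, the partners of Id proteins, Tcf4 was higher in basal cells, a call that did not hold in several alternatives. The list of basic helix-loop-helix (bHLH) factors had 24 genes, of which 13 were tested in basal against luminal cells; 1 was higher and none lower, where 8% and 6.57% of all genes tested passed as higher and as lower, so the count is near the background. The median log2 change was -0.44 against 0.00 over all genes tested. The higher one was Tcf4, at 2.98 per 10000 in basal cells, 1.33 in hormone-sensing cells and 1.75 in secretory cells (log2 change 1.39 ± 0.42, SE, edgeR adjusted p = 0.0432). Without the cells led by other markers the change was 0.73 (edgeR adjusted p = 0.0920), and leaving out plate 1 library 1, 2 or 3 or plate 2 library 1 or 3 also ended the call, with 0.84 without plate 1 library 2. Neither plate alone gave a call for Tcf4. The other E protein genes, named here after their values were seen, had changes of -0.27 ± 0.38 for Tcf3 (adjusted p = 0.728) and -0.44 ± 0.35 for Tcf12 (adjusted p = 0.486). Between hormone-sensing and secretory cells 6 of the list were tested and 2 were lower, where 7.49% of all genes passed as lower, with a median of -0.93 against 0.10 over all genes. These were the Notch target genes Hes1, at 2.61 and 4.11 per 10000 (-1.89 ± 0.54, edgeR adjusted p = 0.00541), and Hey1, at 0.118 and 3.87 (-4.99 ± 0.83, adjusted p = 6.78e-08). Hey1, with 4 hormone-sensing transcripts, passed the low-count filter through its secretory counts alone, so its adjusted p is a description. The Hes1 call was lost without plate 1 library 3 (edgeR adjusted p = 0.361) or plate 2 library 1 (adjusted p = 0.0957), and the Hey1 call without plate 2 library 1 (0.0529) or library 3 (adjusted p = 0.0508).

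Few BMP pathway genes could be tested. Of 33 listed, 11 entered the basal against luminal test; 2 were higher and none lower, where 8% and 6.57% of all genes passed, with a median of 0.90 against 0.00 over all genes. Bmp7, a BMP ligand, had 192 transcripts in basal cells, against 0 in hormone-sensing and 1 in secretory cells (edgeR adjusted p = 3.78e-05). Fstl1, a secreted follistatin-like protein, had 448 transcripts in basal cells, against 1 and 0 (edgeR adjusted p = 5.67e-06). Bmp7 and Fstl1 passed the low-count filter through their basal counts alone, so both adjusted p are descriptions. Between hormone-sensing and secretory cells 1 of the list was tested: Bmpr1a, a BMP receptor gene, at a log2 change of -1.09 ± 0.68 (SE), and it did not pass (edgeR adjusted p = 0.371). The ligand Bmp4, named here after its values were seen, had 1 transcript in all 3 classes together.

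A list of 20 genes tied to Id function in the cell cycle and in mammary differentiation was also fixed. In basal against luminal cells 9 were tested; 1 was higher and 2 were lower, where 8% and 6.57% of all genes passed, with a median of 0.36 against 0.00. Egr1, an immediate-early transcription factor, was higher at 23.6 per 10000 in basal cells, against 9.00 in hormone-sensing and 16.3 in secretory cells (log2 change 1.07 ± 0.22, SE, edgeR adjusted p = 0.00408). Gata3, a luminal transcription factor, was lower at 2.11, against 14.8 and 6.70 (-2.32 ± 0.39, edgeR adjusted p = 0.000987). Ets2, an Ets family transcription factor, was lower at 0.980, against 4.06 and 2.66 (-1.57 ± 0.38, edgeR adjusted p = 0.0125), a call lost without plate 1 library 4 or plate 2 library 2 or 4 (adjusted p 0.0501 to 0.0631). On plate 1 alone none of Egr1, Gata3 and Ets2 passed (edgeR adjusted p = 0.250, 0.0614 and 0.699). Between hormone-sensing and secretory cells 10 were tested, none was higher and 2 were lower, where 5.6% and 7.49% of all genes passed, with a median of 0.17 against 0.10. Elf5, an Ets factor of the secretory lineage, had 3 against 133 transcripts (edgeR log2 change -5.58 ± 0.81, adjusted p = 5.99e-10), and Egr1 had a log2 change of -2.09 ± 0.42 (edgeR adjusted p = 1.23e-05). Elf5 passed the low-count filter through its secretory counts alone, so its adjusted p is a description. Without plate 2 library 1 neither passed, at adjusted p from edgeR of 0.0529 for Elf5 and 0.307 for Egr1, and Egr1 did not pass without plate 2 library 3 (adjusted p = 0.205).

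Genes whose levels ran most like those of each Id gene were found by Pearson correlation over the 11 library and class sums with at least 3 cells, among 8020 genes. The sums share libraries and classes, so the values describe likeness only. For Id4 the closest were Fam129a, Dlx3, Krt5, Lhfp and Hunk, with r between 0.996 and 0.999, and all 5 had 0 luminal transcripts. Dlx3 is a homeobox transcription factor and Krt5 a basal keratin on the marker list. For Id2 they were Tcf7l2 (r = 0.984), a transcription factor of the Wnt pathway, Cst3 (cystatin C), the homeobox gene Irx1, Tmem132a and Lcn2 (r = 0.925), a secretory marker. Tcf7l2 stood at 1.58 per 10000 in basal, 0.533 in hormone-sensing and 5.15 in secretory cells. For Id3 they were Cdk19 (r = 0.973), a Mediator kinase, the calcium-binding S100a6, Man1a, Dock5 and Psmb9 (r = 0.938), an immunoproteasome subunit. S100a6 stood at 1.41 per 10000 in basal, 21.2 in hormone-sensing and 1.04 in secretory cells. Between the Id genes r was -0.86 for Id2 with Id3, -0.04 for Id2 with Id4 and -0.42 for Id3 with Id4. Id1 had under 30 transcripts and was not compared.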

How the data were processed

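The authors deposited one table of expected counts (molecules estimated from tags) with genes in lines and wells in columns. Of 533078 values above 0, 533073 lay within 1e-06 of the value that a pool of 256 tags of 4 bases gives after correction for shared tags. Read pairs were of 75 bases, per the labels' protocols. The submitters' processing notes name mm10 and BWA 0.6.2-r126 without settings, and no filter of the authors is stated.

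Counts were rounded to whole numbers, the 81 spike-in lines left out, and 114 of the 121 wells with 1500 transcripts kept. No 2 kept cells held the same values. Transcripts were summed per library and class (at least 5 cells for basal and luminal, 3 for luminal classes). The sums were tested with edgeR 4.0.16 in R 4.3.3, fitted over all genes. Settings were TMM factors, its low-count filter, the quasi-likelihood test and an adjusted p under 0.05 after Benjamini-Hochberg. The 8 genes that set the classes were not removed before fitting or adjustment, only from the counts of genes tested and passing. Standard errors were taken as the log2 change divided by the square root of the F statistic. DESeq2 1.42.0 was an alternative. The fits were also run on simulated counts with a common dispersion and no library effect. That setting differs from these data, so it lends the p-values no support. The hormone-sensing against secretory fit has 3 library pairs, and its p-values rest on the spread pooled over genes. Intervals, bounds and floors (3 counts) cover counting error only. Shares at 1500 transcripts are exact expectations of drawing without replacement.

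The members, classes and gene lists were chosen with earlier results of these data known. Named genes are the 4 members, every listed gene past the threshold in the basal against luminal or hormone-sensing against secretory fit, and the 5 genes most like each member (log2 of transcripts per 10000 + 0.5, at least 30 transcripts). Cells were called led by another type when 1 of 8 non-epithelial marker lists outnumbered the epithelial lists. Of these, 5 were led by adipocyte, 2 each by endothelial, fibroblast, macrophage and red blood cell, and 1 each by lymphocyte and Schwann cell markers; pericyte markers led none. Nothing in the labels says that equal library numbers on the 2 plates pair libraries. Their deviations correlated at -0.0265 in basal and -0.175 in luminal cells. With 2 libraries a plate in each class, the deviations mirror each other, so these values cannot settle pairing.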

Additional observations from a re-analysis of the deposited data

Results flagged for a closer look

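Dixon's test for a library far from the others was applied to 10 sets of 4 library values, of which chance flags about 1 in 20, and it picked 2. The Id3 level in basal cells of plate 1 library 2 was 1.28 per 10000, while the other basal libraries had 0 to 0.102; its 9 transcripts all lay in cells led by non-epithelial markers. The Id1 level in secretory cells of plate 1 library 1 was 0.105 per 10000, which is 1 transcript, while the other secretory sums had 0.

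Wells that were not taken as cells also held Id transcripts. The 579 wells under 500 transcripts held 4 transcripts of Id1, 9 of Id2, 16 of Id3 and 14 of Id4, or 0.481, 1.08, 1.92 and 1.68 per 10000. The 68 wells of 500 to 1499 transcripts held 2 of Id1, 7 of Id2, 12 of Id3 and 5 of Id4. Of these, 2 of the Id4 transcripts lay in basal wells and 3 in 1 secretory well, and 3 of the Id3 transcripts lay in hormone-sensing and 6 in secretory wells. The 6 cells with equal marker sums held 12 Id3 transcripts, 10 of them in the cell led by Schwann cell markers and 2 in a cell led by fibroblast markers, and no transcript of the other members.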

How the results depend on the processing

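Choices were changed 1 at a time. Of 187 recomputed log2 changes of Id genes, 177 stayed on their side of the threshold with no passing change of sign, 8 no longer passed and 2 newly passed. Every recomputed change of Id4 in the 3 comparisons of basal cells with luminal cells or a luminal class passed, with adjusted p of 0.0103 at most, but luminal sums held 0 transcripts, so this says nothing of stability. The basal against luminal change of Id3 no longer passed with DESeq2 (-2.91) or on plate 1 alone (-1.05), and lay between -5.19 and -3.09 when each library was left out, 3 of these no longer passing; adjusted p lay between 3.41e-07 and 0.812. Between hormone-sensing and secretory cells, Id3 at 4.58 no longer passed (adjusted p 0.103) with cells of at least 3000 transcripts. Leaving out each library gave -6.03 to -4.59 for Id2 and 2.99 to 8.87 for Id3, and both lost the call without plate 2 library 1. Between plates, the luminal Id3 change lay between 0.90 and 4.16 when each library was left out. The Id genes fell under the low-count filter in the basal against luminal and hormone-sensing against secretory fits of counts thinned to 1500 transcripts, so these gave no value; neither did Id2 in basal against hormone-sensing cells without plate 1 library 4, plate 2 library 2 or plate 2 library 4. Of the recomputed changes of the passing listed genes, 28 no longer passed and none changed sign.

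Counts of genes passing moved too. Without the filter on low counts they were 1505 in basal against luminal cells, 170 and 52 between plates in basal and in luminal cells, 1083 in basal against secretory and 1579 in basal against hormone-sensing cells. At 1500 transcripts a cell they were 23 in basal against luminal, 27 in hormone-sensing against secretory, 4 between plates in basal cells, 30 in basal against secretory and 20 in basal against hormone-sensing cells. Without cells led by other markers they were 826 in basal against luminal cells and 82 between plates in basal cells. With at least 3000 transcripts a cell they were 107 in hormone-sensing against secretory and 450 in basal against secretory cells. Basal against luminal cells gave 155 on plate 1 alone and 929 on plate 2 alone. DESeq2 gave 22 and 1 between plates in basal and in luminal cells. Leaving out each library gave 428 to 837 in basal against luminal cells (837 without plate 1 library 2), 22 to 136 in hormone-sensing against secretory cells (22 without plate 2 library 1), 34 to 862 and 0 to 99 between plates in basal and in luminal cells (862 without plate 1 library 4, 99 without plate 1 library 3), 244 to 508 in basal against secretory and 421 to 788 in basal against hormone-sensing cells.

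With the library number as a replicate block, 27 genes passed between plates in basal cells and 0 in luminal cells. Whether the numbers pair libraries is not given. The crossed replicate block, added after the data were seen because the luminal deviations ran opposite, gave 36 calls in luminal cells, Id3 at 2.02 among them. Without the block, 226 genes passed between hormone-sensing and secretory cells, with Id2 at -5.38 and Id3 at 4.35. No block by library was possible in basal against luminal cells, since no library held 3 cells of both; with plate as a covariate 494 genes passed, with Id3 at -3.80.

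Shares of cells fell at 1500 transcripts a cell to 2.35%, 14.5%, 3.07% and 40.0% for Id1 to Id4 in basal cells, to 1.68%, 0.658% and 44.7% for Id1 to Id3 in hormone-sensing cells, and to 27.5% for Id2 in secretory cells. Counting only cells with at least 2 transcripts gave 7.58%, 37.9%, 4.55% and 65.2% for Id1 to Id4 in basal cells, 0% for Id1 and for Id2 in hormone-sensing cells, and 0%, 39.3% and 3.57% for Id1 to Id3 in secretory cells. On plate 1 alone basal cells had Id2 in 31.3% and Id4 in 56.3%, and on plate 2 alone secretory cells had Id1 and Id3 in 0%. Without cells led by other markers Id4 was in 89.7% of basal cells. Leaving out each library gave 68.6 to 84.5% for Id4 in basal cells, and 0 to 5.26% for Id1 and 5.26 to 26.3% for Id3 in secretory cells. At 1500 transcripts the expected share with both genes was 7.13% of basal cells for Id2 and Id4 and 0.675% of luminal cells for Id2 and Id3. Depth limits Id1, with 23 transcripts in the 3 classes together, and every statement on the 14 hormone-sensing cells.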
